A study of Mus musculus with 4 samples.

Results

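The cells described here are tracheal fibroblasts that carried transcripts of Bmp5 or Lrat and had at most 1 UMI of Col23a1 and at most 1 of Prg4 and Kera together. They were chosen by measured counts in all 4 single-cell libraries. A fibroblast was a barcode with at least 500 genes, at most 15% mitochondrial UMIs and at least 10 UMIs of Col1a1, Col1a2, Col3a1 and Dcn per 10000, with no UMI of Epcam, Ptprc, Pecam1 or Acan. A selected cell was a fibroblast with at least 2 UMIs of Lrat and Bmp5 together, fewer than 2 of Prg4 and Kera together, and fewer than 2 of Col23a1. A UMI is a molecular tag that marks 1 captured transcript. The rule found 238 cells among 7263 fibroblasts and 35901 cells that passed the quality limits, out of 39524 barcodes. Of the 238 cells, 219 came from dorsal and 19 from ventral trachea.

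The libraries came from mouse trachea cut under the microscope into a dorsal and a ventral piece and digested with papain. All animals carried P63-CreER, Ki67-lsl-Dre and Rosa26-rsr-GFP, received tamoxifen, and were collected 10 days later. Controls were Ctnnb1-fl/+ and knockouts Ctnnb1-fl/fl, which gave 4 groups of 1 library each. Values listed in order below run from control dorsal and control ventral to knockout dorsal and knockout ventral. P63-CreER is active in cells that express p63, the transcription factor of airway basal cells, so fibroblasts were not its intended target. Whether any fibroblast lost the floxed gene was not tested. The controls carried 1 floxed copy as well. The sources used here state no age, no number of mice per library and no hour of collection. With 1 library per group no difference could be tested. Every interval below is a 95% interval for counting error only, and region or genotype cannot be told apart from the library.

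The trachea is held open by cartilage on its ventral side and closed by the trachealis muscle on its dorsal side, and fibroblasts of both sides lie between epithelium, cartilage, muscle and adventitia. BMP5 is a secreted ligand of the bone morphogenetic protein family, which acts through type I and type II receptor kinases and SMAD proteins and induces the Id genes. LRAT esterifies retinol for storage, a step that retinoid-storing mesenchymal cells such as hepatic stellate cells are known for. Lumican (Lum) is a small leucine-rich proteoglycan that binds collagen fibrils, Meox1 is a homeodomain factor of the somite lineage, and Epha3 is an ephrin receptor.

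The upstream windows of the genes that chose the cells are shown because they name the selected population. Both are the 250 bases before the annotated start from RefSeq on GRCm38.p6, an older build than the authors' GRCm39, and 3 of the 5 marker genes (Bmp5, Lrat and Epha3) had a window. The Bmp5 window is chr9:75775115-75775364 on the plus strand and the Lrat window is chr3:82903975-82904224 on the minus strand.
Bmp5: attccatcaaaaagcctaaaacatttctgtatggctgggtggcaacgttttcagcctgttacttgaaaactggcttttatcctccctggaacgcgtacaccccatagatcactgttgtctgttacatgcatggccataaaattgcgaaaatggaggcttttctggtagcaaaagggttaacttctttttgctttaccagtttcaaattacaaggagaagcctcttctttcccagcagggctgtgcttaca
Lrat: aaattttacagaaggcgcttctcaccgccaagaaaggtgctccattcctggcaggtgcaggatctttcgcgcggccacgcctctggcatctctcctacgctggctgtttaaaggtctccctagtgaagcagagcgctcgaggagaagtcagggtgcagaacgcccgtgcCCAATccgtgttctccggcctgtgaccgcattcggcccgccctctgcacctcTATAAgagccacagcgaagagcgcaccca
Capitals mark matches to the TATA element (TATAA), the CCAAT element (CCAAT) and the nuclear receptor hexamer (AGGTCA), searched on both strands, none of which overlap. Lrat held TATAA at -29 and CCAAT at -81 from its start, and Bmp5 held none of the 3 letter strings in this window. Among 32851 windows of the same length, 22.8% held TATAA, 33.8% held CCAAT and 14.0% held AGGTCA. A match describes letters and is no measured site.

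The selected cells were Bmp5 cells with little Lrat. Bmp5 reached 2 UMIs in 220 of the 238 cells, and Lrat in 11. No Lrat UMI was counted in 218 cells, no Bmp5 UMI in 6, and both genes had a UMI in 14. In the selected cells Bmp5 stood at 269 UMIs per 1000000 (CPM; interval 241 to 299) in control dorsal, 240.5 (145 to 376) in control ventral, 215 (190 to 242) in knockout dorsal and 267 (184 to 375) in knockout ventral. The rule fixed those levels. Lrat stood at 14.2, 0, 26.2 and 24.2 CPM in the same order, from 18, 0, 33 and 3 UMIs, against 24.8, 1.94, 27.0 and 0.666 CPM in the remaining fibroblasts. In the dorsal libraries the Lrat level of the selected cells was therefore at or under that of the other fibroblasts. Those others include Col23a1 cells with Lrat that the rule left out. In knockout ventral the Lrat level of the selected cells was above that of the others, from 3 UMIs. The label "Lrat or Bmp5 positive" thus describes mainly their Bmp5, and 6 cells met the rule through Lrat alone. They are called Bmp5 fibroblasts from here on.

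Lrat lay in a neighbouring set that the rule left out. Fibroblasts with at least 2 UMIs of Lrat and Bmp5 numbered 829, and 257 of them also had at least 2 UMIs of Col23a1, a membrane collagen, with fewer than 2 of Prg4 and Kera. That Col23a1 set held Lrat at 288 CPM (260 to 318) in control dorsal and 349 (318 to 382) in knockout dorsal. It held Bmp5 at 147 and 121 CPM. A further 334 had at least 2 UMIs of Prg4 and Kera, which encode lubricin and keratocan, and these carried Bmp5 at 250.3 and 225 CPM with Lrat at 2.72 and 0.386 CPM in the dorsal libraries. All 3 sets passed the same threshold on Lrat and Bmp5, so their summed level is set by the selection. What the selection did not fix is which of the 2 genes made up the sum: Lrat in the Col23a1 set with some Bmp5, and nearly all Bmp5 in the other sets.

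**Figure D1:**
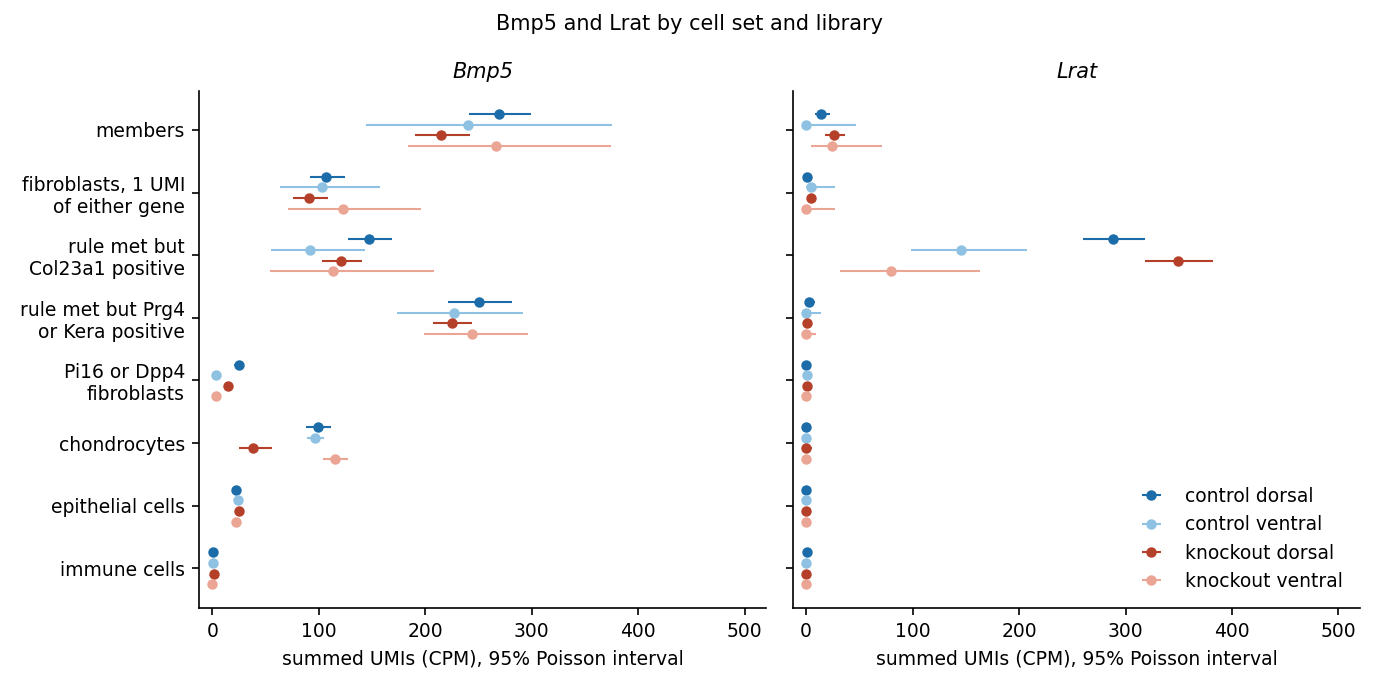
Levels of Bmp5 and Lrat in CPM (horizontal axes) in the Bmp5 fibroblasts, other fibroblast sets and other cell classes, with 1 point per library and bars for the exact Poisson interval. The first sets were chosen by a threshold on these genes, and within them Lrat is high in the Col23a1 set, which reaches 288 CPM in control dorsal and 349 in knockout dorsal.

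Many cells lay at the edge of the threshold. A sum of exactly 2 UMIs was found in 124 of the 238 cells, and 344 otherwise eligible fibroblasts had a sum of 1. Bmp5 in the cells just outside stood at 107, 103, 91.2 and 123 CPM, between the selected cells and the remaining fibroblasts (47.1, 7.82, 57.1 and 11.4 CPM).

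Counts of 2 UMIs depend on how deeply a cell was sequenced, and other classes set the background. The median total was 8366, 11007, 10086 and 9442 UMIs in the fibroblasts, in the order of libraries given above. Lrat and Bmp5 together reached 2 UMIs in 16.4%, 2.24%, 21.0% and 3.74% of fibroblasts, and in 14.5%, 18%, 18.8% and 18% of epithelial cells, whose median totals were 21817.5, 22663, 21873 and 23286 UMIs. Thinned to 5000 UMIs per cell, the share was 9.47%, 0.802%, 9.60% and 1.29% of fibroblasts and 1.35%, 1.79%, 1.48% and 1.31% of epithelial cells. Immune cells reached 0.341%, 0%, 0.483% and 0% without thinning, and 0 of 331 and 0 of 241 cells in the ventral libraries allow up to 0.906% and 1.24%. Endothelial cells reached 13.0%, 2.6%, 14% and 1.64%, and chondrocytes 32.9%, 35.8%, 20% and 40%. Thinned, endothelial cells reached 6.83% (3.46 to 11.9) and chondrocytes 7.33% (4.07 to 12.0) in control dorsal, intervals that overlap the 9.47% (8.13 to 10.9) of fibroblasts. Without thinning the ventral fibroblasts were thus above the immune cells. Thinned, ventral immune cells stood at 0% (0 to 1.30) in control and 0% (0 to 1.86) in knockout. Those intervals overlap the 0.802% (0.415 to 1.40) and 1.29% (0.755 to 2.06) of ventral fibroblasts. At equal depth the ventral fibroblasts were also not above the epithelial cells. Whether free RNA contributed to the 19 ventral cells was not tested.

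Bmp5 fibroblasts made up a larger share of fibroblasts in the dorsal libraries. The share was 5.64% (118 of 2092; exact Clopper-Pearson interval 4.69 to 6.72) in control dorsal, 0.402% (7 of 1741; 0.162 to 0.827) in control ventral, 5.46% (101 of 1851; 4.47 to 6.59) in knockout dorsal and 0.760% (12 of 1579; 0.393 to 1.32) in knockout ventral. The dorsal intervals overlap each other and lie above both ventral ones. When every cell was thinned and the whole rule was applied anew, 1989, 1932, 1849 and 1696 cells passed as fibroblasts and the shares were 4.02% (3.20 to 4.98), 0.311% (0.114 to 0.675), 2.76% (2.06 to 3.61) and 0.354% (0.130 to 0.768). With the fibroblasts fixed before thinning and 360, 244, 236 and 264 shallower ones left out, the shares were 4.10% (71 of 1732), 0.334% (5 of 1497), 2.79% (45 of 1615) and 0.456% (6 of 1315). The control and knockout dorsal intervals overlap in either form.

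**Figure D2:**
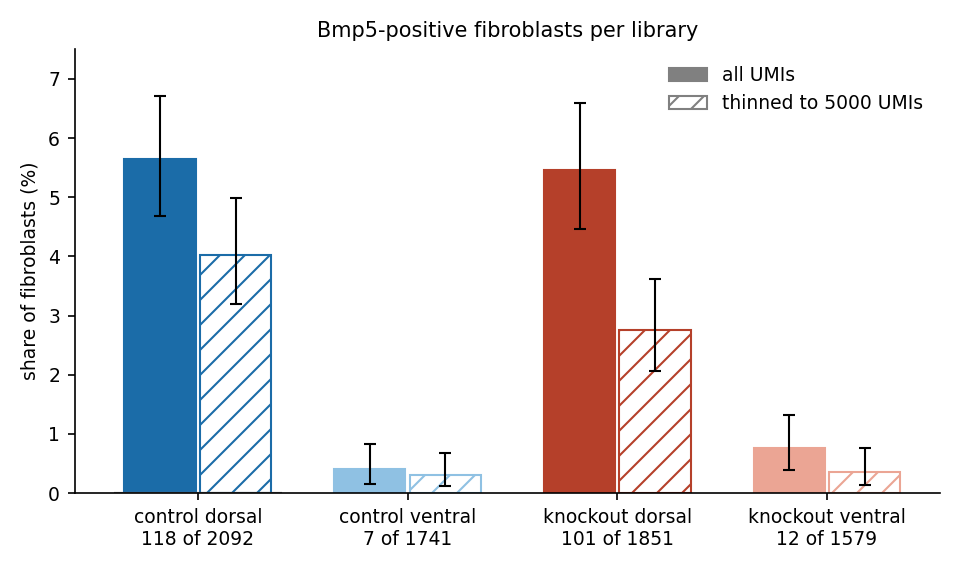
Share of fibroblasts that met the Bmp5 rule, in percent (vertical axis), for each library, with all UMIs (solid bars) and after thinning to 5000 UMIs per cell (hatched bars) and exact Clopper-Pearson intervals. Both dorsal libraries, at 5.64% and 5.46%, stand above both ventral libraries, at 0.402% and 0.760%.

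The selected cells bore fibroblast markers and few markers of other cells. The rule itself allowed no UMI of Epcam, Ptprc, Pecam1 or Acan, so the zeros of these genes were fixed by the selection. Pdgfra, a receptor of mesenchymal cells, stood at 268, 278, 363 and 234 CPM. The 4 chondrocyte markers summed to 8.69, 392, 0 and 0 CPM in Bmp5 fibroblasts, against 3936 to 6558 CPM in chondrocytes, with Acan and Matn1 at 0 in all 4 libraries. The control ventral value came from 3 of its 7 cells, which carried 11, 7 and 2 UMIs of the cartilage collagen Col2a1 together with Chad and Omd. The epithelial markers summed to 855, 215, 339 and 186 CPM, nearly all of it the secretory transcript Scgb1a1, against 21740 to 82946 CPM in epithelial cells. Endothelial markers summed to at most 1.58 CPM. The 4 pericyte markers summed to 74.2, 101, 56.4 and 56.6 CPM with Rgs5 at 0, against 118, 90.7, 87.9 and 83.1 CPM in other fibroblasts. The 4 smooth muscle markers summed to 93.2, 0, 15.9 and 0 CPM, against 191, 78.8, 32.4 and 21.8 CPM. Immune markers summed to 79.0, 190, 52.4 and 250.6 CPM with Ptprc and Cd3e at 0. Their part in the results below was not tested. Barcodes shared between libraries numbered 187, and none was a Bmp5 fibroblast.

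The other marker genes named for these cells were not all particular to them. Lum stood at 2578 CPM in Bmp5 fibroblasts against 1312 in other fibroblasts of control dorsal, and at 1295 against 941 CPM in knockout dorsal, ratios of 1.97 (1.89 to 2.04) and 1.38 (1.31 to 1.45). In the ventral libraries it stood at 1063 and 816 CPM. Meox1 stood at 67.1, 0, 76.2 and 0 CPM against 20.1, 6.19, 40.0 and 8.52 in other fibroblasts, which gave dorsal ratios of 3.35 (2.61 to 4.26) and 1.91 (1.52 to 2.36). Meox1 was detected in 20.3% of control dorsal Bmp5 fibroblasts and 5.12% of the others, and in 0.305% of epithelial cells. At 5000 UMIs per cell those shares were 13.9%, 4.33% and 0.0499%. Epha3 stood at 73.4, 75.9, 51.6 and 88.9 CPM, from 93, 6, 65 and 11 UMIs, against 63.9, 6.98, 49.3 and 9.85 CPM. Epha3 was therefore at about the same level in selected and other dorsal fibroblasts.

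The Ctnnb1 transcript stood at 126, 177, 102 and 72.7 CPM in Bmp5 fibroblasts and at 124, 152, 91.1 and 126 CPM in the other fibroblasts. The knockout to control ratio in dorsal trachea was 0.816 (0.642 to 1.04) in Bmp5 fibroblasts and 0.736 (0.689 to 0.785) in the others. Since these cells are not the intended target of the Cre driver, the transcript checks no genotype here. The cause of the lower Ctnnb1 level in knockout dorsal was not tested. The reporter transcript eGFP stood at 129, 88.6, 109.6 and 40.4 CPM in Bmp5 fibroblasts and at 118, 102, 104 and 75 CPM in the others.

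Against the other fibroblasts of the same dorsal library, Bmp5 fibroblasts differed in few genes. A gene was measured with at least 50 UMIs and 20 CPM in 1 of the 2 sums, and counted as higher or lower past a 2-fold ratio. In control dorsal 31 of 6470 measured genes were higher (0.479%) and 111 were lower (1.72%). In knockout dorsal 16 of 5985 were higher (0.267%) and 60 were lower (1.00%). The cells were picked by counts from these same libraries, so the values are a description of the cells and no test of them. The other fibroblasts include those with at least 2 UMIs of Prg4 and Kera (1903 cells over all libraries) or, without these, of Col23a1 (2497), which the rule kept out. Bmp5 fibroblasts had median totals of 10392 and 11656 UMIs in the dorsal libraries, and the others 8208 and 9987.

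Secreted and matrix genes led the higher genes. Ccl11, the eosinophil attractant eotaxin, stood at 609.6 CPM in Bmp5 fibroblasts against 128 in the others of control dorsal and at 1023 against 388 in knockout dorsal, ratios of 4.75 (4.37 to 5.16) and 2.64 (2.48 to 2.80). Smoc2, a matricellular protein that binds calcium, stood at 298 against 79.3 and at 219 against 69.8 CPM, ratios of 3.76 (3.34 to 4.21) and 3.14 (2.75 to 3.58). Both were also detected in more cells. Ccl11 was found in 49.2% of Bmp5 fibroblasts and 13.0% of the others in control dorsal, with 0.366% of epithelial cells as background, and in 53.5% and 26.7% in knockout dorsal, with 0.658%. Smoc2 was found in 35.6% and 14.3% in control dorsal, with 1.74% of epithelial cells, and in 38.6% and 14.5% in knockout dorsal, with 0.752%. At 5000 UMIs per cell the control dorsal shares were 47.8%, 12.1% and 0.237% for Ccl11 and 31.3%, 12.7% and 0.561% for Smoc2.

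Vwa1, a matrix protein of basement membranes, had ratios of 3.52 (2.76 to 4.46) in control dorsal and 2.27 (1.74 to 2.92) in knockout dorsal. Col5a3, a chain of type V collagen, had ratios of 2.26 and 2.30, with 158 and 109.6 CPM in Bmp5 fibroblasts against 70.0 and 47.7. Col15a1, a collagen beside basement membranes, stood at 658 and 292 CPM and 1.73 (1.61 to 1.86) and 1.56 (1.39 to 1.73) times the other fibroblasts. The actin-binding Cald1 had ratios of 2.21 and 2.01, the calcium sensor Ncald 2.42 and 2.69, and the cell adhesion gene Lsamp 2.15 and 1.73. Lpl, which releases fatty acids from lipoproteins, had 1.94 and 1.85, and Enpp2, which makes lysophosphatidic acid, 1.81 and 1.78. Rgmb, a BMP co-receptor, stood at 107 and 80.2 CPM in Bmp5 fibroblasts, 1.92 and 1.88 times the others.

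Lower genes included chemokine, growth signal and regional genes. For several the comparison with all other fibroblasts rested on the Col23a1 cells among these, and for Procr also on the Prg4 or Kera cells. In control dorsal Procr stood at 14.2 CPM in Bmp5 fibroblasts, 53.3 in Col23a1 fibroblasts and 72.6 in Prg4 or Kera fibroblasts. Cxcl14, a chemokine of epithelia and fibroblasts, had no UMI in the control dorsal cells, against 23.6 CPM in the other fibroblasts, which at a floor of 3 UMIs is a ratio of at most 0.10. In knockout dorsal it stood at 5.56 against 42.0 CPM, a ratio of 0.132 (0.0530 to 0.274). Tbx4, the T-box factor of lung and tracheal mesenchyme, stood at 19.7, 25.3, 22.2 and 24.2 CPM in Bmp5 fibroblasts of the 4 libraries against 64.5, 79.6, 53.2 and 79.6 in the others. Its dorsal ratios were 0.306 and 0.418. The selected cells were lower in all 4 libraries, but the ventral values came from only 7 and 12 cells. Hhip, which binds hedgehog ligands, had ratios of 0.391 and 0.139. Cyp2e1, a cytochrome P450 of xenobiotic metabolism, had 0.286 and 0.257, the laminin chain Lamc3 had 0.144 and 0.220, and Procr, the protein C receptor, had 0.339 and 0.256. Against Pi16 or Dpp4 fibroblasts without Col23a1, Prg4 and Kera, described below, Cyp2e1 had 1.63 (1.20 to 2.19) in control and 0.875 (0.573 to 1.30) in knockout dorsal. Hhip had 1.49 (1.17 to 1.89) and 0.262 (0.153 to 0.422) there. Tbx4 had 0.799 (0.50 to 1.23) and 0.657 (0.424 to 0.984), Lamc3 0.719 and 0.496, and Procr 0.793 and 0.463. The control dorsal cells were therefore not lower in Cyp2e1 or Hhip than these fibroblasts, while Cxcl14 remained low in knockout dorsal, at 0.101 (0.0401 to 0.210).

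**Figure D3:**
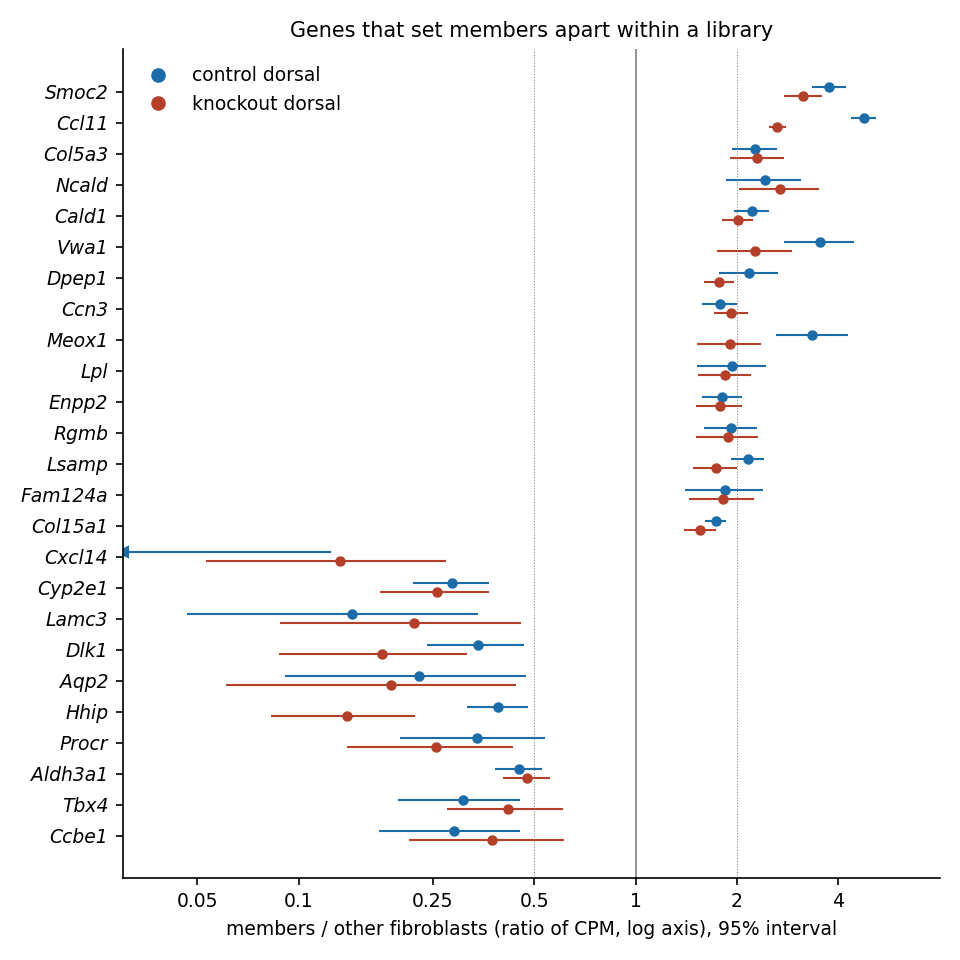
Ratio of the level in Bmp5 fibroblasts to that in the other fibroblasts of the same library (horizontal log axis), for the 15 genes highest and the 10 lowest on both dorsal libraries, with counting intervals. Control dorsal is blue and knockout dorsal red, and the arrow marks Cxcl14, which had no UMI in control dorsal. The 25 genes lie on the same side of 1 in both libraries because the ranking required it.

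Matrix gene groups stood slightly above the other fibroblasts in control dorsal. The median of all genes was -0.0048 on the log2 scale in control dorsal and 0.0041 in knockout dorsal. The counts cover the measured genes of each list, such as 19 of the 36 collagens in control dorsal. Among the collagens, 16 of 19 stood above the other fibroblasts in control dorsal and 11 of 15 in knockout dorsal, with medians of 0.37 and 0.32. Only 1 collagen in each library was past 2-fold higher. Elastic and glycoprotein matrix genes had a median of 0.32 in control dorsal, with 31 of 44 above, and -0.11 in knockout dorsal, with 18 of 41 above. The small leucine-rich proteoglycans had 8 of 9 above in control dorsal and 5 of 8 in knockout dorsal.

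Wnt genes stood lower than BMP and TGF-beta genes in control dorsal, while the medians of both lists were about the same in knockout dorsal. Of the BMP and TGF-beta genes, 11 of 30 were above the other fibroblasts in control dorsal and 11 of 29 in knockout dorsal, with medians of -0.07 and -0.20. Among ligands in the Bmp5 fibroblasts, Bmp2 stood at 123, 75.9, 57.2 and 105 CPM, Bmp4 at 70.3, 25.3, 81.8 and 16.2, and Inhba, an activin subunit, at 94.0, 12.7, 85.8 and 88.9. Gdf10, another ligand of the family, stood at 62.4, 291, 56.4 and 121 CPM. Bmpr1a, a type I receptor, stood at 97.9, 101, 68.3 and 97.0 CPM. Of the Wnt genes, 3 of 25 were above and 7 were past 2-fold lower in control dorsal (median -0.55), and 2 of 12 were above and 2 past 2-fold lower in knockout dorsal (median -0.21). Eph, ephrin and guidance genes had medians of 0.02 and -0.14. Sfrp2, a secreted Wnt antagonist, stood at 16.6, 50.6, 11.1 and 40.4 CPM in Bmp5 fibroblasts against 53.8, 605, 26.3 and 240.4 in the others.

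Retinoid handling genes, to which Lrat belongs, were not higher in the selected cells. In control dorsal 1 of 13 measured genes stood above the other fibroblasts and in knockout dorsal 3 of 11, with medians of -0.25 and -0.30. The retinol dehydrogenase gene Adh7 had ratios of 0.591 and 0.456, and Cyp1b1 0.421 and 0.565. Interferon response genes had none of 21 above the other fibroblasts in control dorsal and 3 of 14 in knockout dorsal, with medians of -0.48 and -0.29. In control dorsal 7 of the 21 were past 2-fold lower, as were 6 of 21 chemokine, cytokine and complement genes, against 1.72% of all genes. One chemokine group gene, or 1 of 21, was past 2-fold higher in control dorsal. In knockout dorsal no interferon gene was past 2-fold lower. Of 22 chemokine, cytokine and complement genes measured there, 2 were past 2-fold lower and 4 past 2-fold higher, with a median of -0.07. Among all genes of knockout dorsal, 1.00% were lower and 0.267% higher.

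Compared with the Lrat-bearing Col23a1 set, Bmp5 fibroblasts differed in many more genes. That set was small, with 128 cells in control dorsal and 110 in knockout dorsal, and the part of its size was not tested. In control dorsal 228 of 4671 measured genes were higher (4.88%) and 224 lower (4.80%). In knockout dorsal 183 of 4262 were higher (4.29%) and 229 lower (5.37%). Ccl11 was 118-fold higher (57.2 to 296) in control dorsal, at 609.6 against 5.14 CPM, and 29.8-fold higher (22.2 to 40.9) in knockout dorsal. Smoc2 was 5.79-fold (4.47 to 7.58) and 12.2-fold (8.05 to 19.4) higher, and Lpl 6.09-fold and 29.4-fold. Meox1 was listed at 0 CPM in the Col23a1 set of control dorsal and at 0.746 in knockout dorsal. In the other direction, Cyp2e1 had ratios of 0.0798 and 0.0398, Lamc3 0.0381 and 0.0363, Hhip 0.215 and 0.0582, and Tbx4 0.150 and 0.135.

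By the share of genes past 2-fold, the Prg4 or Kera set with Bmp5 was closer than the Col23a1 set. It held 97 cells in control dorsal and 177 in knockout dorsal. In control dorsal 66 of 4250 measured genes were higher in the Bmp5 fibroblasts (1.55%) and 51 lower (1.20%), and in knockout dorsal 59 of 5904 were higher (0.999%) and 128 lower (2.17%). Meox1 had ratios of 0.961 (0.698 to 1.33) and 0.886, and Ccn3, a matricellular regulator, 0.940 and 0.744. Ccl11 was 4.77-fold (3.98 to 5.75) and 2.38-fold higher in the Bmp5 fibroblasts, and Smoc2 2.98-fold (2.41 to 3.72) and 1.53-fold. Procr stood lower, at ratios of 0.135 and 0.157.

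Most Bmp5 fibroblasts also carried adventitial markers. At least 2 UMIs of Pi16 and Dpp4, which mark adventitial fibroblasts, were found in 79.7%, 57.1%, 58.4% and 66.7% of them, and in 67.9%, 55.7%, 68.5% and 56.6% of the others. These markers were thus common to both. Their summed level was lower in Bmp5 fibroblasts in every library, at 844, 494, 556 and 711 CPM against 971, 878, 849 and 1049 CPM in the others. After thinning, Pi16 was detected in 73.9%, 57.1%, 52.7% and 81.8% of Bmp5 fibroblasts and in 78.5%, 61.1%, 75.3% and 66.6% of the others. The higher share in control dorsal was therefore not seen for Pi16 alone at equal depth. Against the other fibroblasts with Pi16 or Dpp4 that had fewer than 2 UMIs of Col23a1 and of Prg4 and Kera (618 cells in control and 485 in knockout dorsal), 15 of 6409 measured genes were higher in control dorsal (0.234%) and 51 lower (0.796%), and in knockout dorsal 27 of 5940 were higher (0.455%) and 56 lower (0.943%). These were the smallest counts relative to the genes measured among the 3 sets in control dorsal. The Col23a1 and the Prg4 or Kera sets held only 128 and 97 cells there, against 618. The part of set size in this order was not tested. In control dorsal Ccl11 was still 2.52-fold higher, Meox1 2.50-fold and Smoc2 2.40-fold, while Dpep1 and Lpl had ratios of 1.04 and 1.12.

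The region a Bmp5 fibroblast came from could be described only with the few ventral cells. Among the Bmp5 fibroblasts, 782 of 4120 measured genes were higher in dorsal than in ventral control cells (19.0%) and 244 lower (5.92%), and in the knockout pair 421 of 3704 were higher (11.4%) and 238 lower (6.43%). In the other fibroblasts the shares were 1.09% and 1.66% in control and 0.876% and 7.27% in knockout. The ventral sums held 79013 and 123728 UMIs from 7 and 12 cells, against 1266445 and 1259070 UMIs in the dorsal ones, so a gene absent from a few cells passes the fold.

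Genes higher in dorsal cells of both pairs included Ifi27l2a, S100a6, Ccn3 and Meox1. Ifi27l2a, an interferon-inducible gene, stood at 686, 63.3, 921 and 251 CPM, with dorsal to ventral ratios of 10.8 (4.63 to 33.5) in control and 3.68 (2.58 to 5.44) in knockout. All 5 of its control ventral UMIs and 45.2% of the knockout ventral ones lay in 1 cell each. S100a6, a calcium-binding protein, stood at 5496, 3429.8, 5629 and 3096 CPM, ratios of 1.60 and 1.82. Ccn3 had no UMI in the control ventral cells, so that the dorsal level was at least 6.74-fold higher, and a ratio of 3.19 in knockout. Meox1 had no UMI in either ventral library, and was at least 1.77-fold and 3.14-fold higher dorsally.

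Genes lower in dorsal cells included Clu, the extracellular chaperone clusterin, at 112, 1050.5, 86.6 and 379.9 CPM, ratios of 0.107 (0.0809 to 0.142) and 0.228. Clu was uneven among the ventral cells, with 1 to 32 UMIs in the 7 control cells and 0 to 28 in the 12 knockout cells. The 3 cells with Col2a1 UMIs had the highest counts among the control cells, at 32, 17 and 24 UMIs.

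Sets of regional genes taken from the other fibroblasts gave a value for every cell. A gene entered a set if the near bound of its dorsal to ventral ratio was past 2-fold in the same direction in both pairs, which gave 14 dorsal and 40 ventral genes. The sets were formed after the data had been seen, and Bmp5 fibroblasts had no part in forming them. The dorsal set holds Lum, Meox1, Epha3, Inhba, Cxcl14, Ccn3 and Thy1 among others, and the ventral set Sfrp2, Apoe, Mfap4, Gdf10 and Rspo3. The ventral set also holds Lipf, Sbpl and Dcpp3, which are gland secretory genes. Epithelial cells held these at 15551 to 46610 CPM in the ventral libraries, and ventral Bmp5 fibroblasts held them at 519, 456 and 127 CPM in control and 477, 420.3 and 178 CPM in knockout. Dorsal Bmp5 fibroblasts held at most 0.794 CPM of each. In Bmp5 fibroblasts the median per cell of the dorsal set was 36.3, 10.6, 21.8 and 13.7 UMIs per 10000 in the 4 libraries in order. The other fibroblasts stood at 18.8, 5.04, 15.7 and 4.31. Lum made up much of the dorsal set. In Bmp5 fibroblasts Lum held 2578 of 4202, 1063 of 1455, 1295 of 2654 and 816 of 1600 CPM of the summed set. In the other fibroblasts it held 1312 of 2390, 482 of 877, 941 of 2067 and 363 of 697 CPM. The Prg4 or Kera set with Bmp5 held the dorsal set at 3440 CPM in control dorsal and 2919 CPM in knockout dorsal. In knockout dorsal that was above the Bmp5 fibroblasts. The ventral set stood at 7.35, 50.5, 6.59 and 21.7 in Bmp5 fibroblasts and at 14.6, 73.5, 7.46 and 57.0 in the others. Without Lipf, Sbpl and Dcpp3 the ventral set stood at 7.35, 41.8, 6.59 and 8.94 in Bmp5 fibroblasts and at 14.6, 54.7, 7.42 and 39.9 in the others. In knockout ventral the median of the Bmp5 fibroblasts thus rested largely on the gland genes and was near the dorsal value without them.

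Gene by gene the ventral genes were mixed in the Bmp5 fibroblasts. Of the 37 ventral genes without the gland genes, 24 were lower dorsally in the control pair and 11 higher, and 26 were lower and 9 higher in the knockout pair. Median log2 ratios were -0.86 and -0.74, against -1.68 and -2.08 in the other fibroblasts and 0.17 and 0.08 over all genes measured in Bmp5 fibroblasts. Of the 14 dorsal genes, 10 were higher and 3 lower in the control pair, and 9 higher and 5 lower in the knockout pair, with medians of 1.44 and 0.47 against 1.49 and 1.60 in the other fibroblasts. Single ventral cells varied, here with all 40 ventral genes. In control ventral 1 cell of 7, with 7 Bmp5 UMIs, carried 31.3 UMIs per 10000 of the dorsal set and 42.0 of the ventral set. In knockout ventral 1 cell of 12, also with 7 Bmp5 UMIs, carried 65.9 of the dorsal set and 21.0 of the ventral set. Lum gave 47 of the 59 dorsal set UMIs of that control cell and 30 of the 47 of that knockout cell. Another knockout ventral cell, with 2 Bmp5 UMIs, had 0 of the dorsal set and 39.3 of the ventral set.

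**Figure D4:**
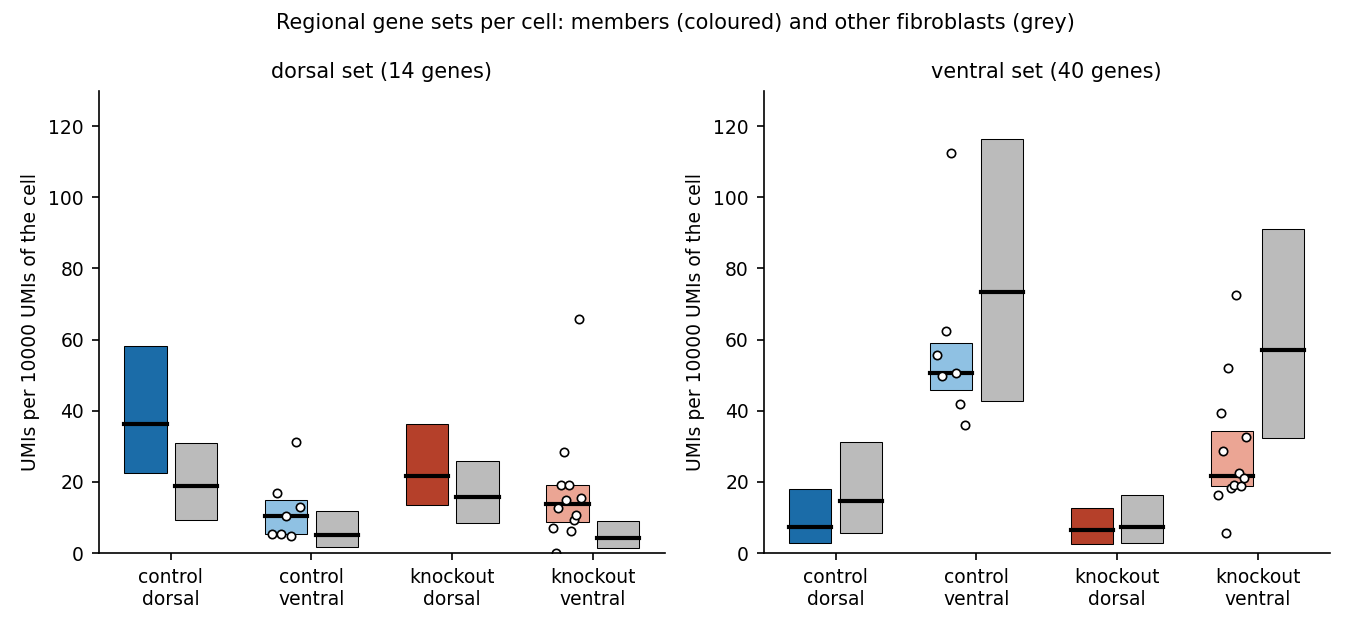
UMIs per 10000 in each cell (vertical axes) of the dorsal set of 14 genes and the ventral set of 40 genes, for each library, as quartile boxes of Bmp5 fibroblasts (coloured) and other fibroblasts (grey). Open circles are the 7 control and 12 knockout ventral Bmp5 fibroblasts, whose medians on the ventral set are 50.5 and 21.7, or 41.8 and 8.94 without Lipf, Sbpl and Dcpp3.

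Between the dorsal libraries, Bmp5 fibroblasts of the knockout held less matrix transcript and more transcript of glucocorticoid-responsive genes. Of 4445 measured genes, 109 were higher in the knockout (2.45%) and 403 lower (9.07%). In the other dorsal fibroblasts 63 of 6701 were higher (0.940%) and 391 lower (5.83%). The median of all measured genes was -0.12 on the log2 scale in Bmp5 fibroblasts and -0.14 in the others. Ribosomal protein genes took 10.4% of UMIs in control and 14.9% in knockout Bmp5 fibroblasts, and 11.4% and 15.8% in the others, and their part in the lower genes was not tested. The same libraries gave both columns of values, so neither supports the other.

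Fibrillar collagens and matrix glycoproteins stood lower. All 15 measured collagens were lower in the knockout, 9 of them past 2-fold, with a median log2 ratio of -1.15, and in the other fibroblasts all 19 were lower, 8 past 2-fold, with -0.90. Col5a1, a type V collagen chain, stood at 356 and 106 CPM in control and knockout, a ratio of 0.299 (0.245 to 0.363) against 0.382 in the others. Col14a1, which associates with fibrils, stood at 851 and 287 CPM, a ratio of 0.337 against 0.489. Of the elastic and glycoprotein matrix genes, 39 of 41 were lower and 19 past 2-fold, with a median of -0.98 against -0.57.

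Postn, the matricellular protein periostin, stood at 222 and 23.0 CPM, a ratio of 0.104 (0.0683 to 0.152) against 0.25 in the others. In the knockout 65.5% of its UMIs lay in 1 cell. Requiring 3 UMIs of Lrat and Bmp5 gave a log2 ratio of -2.05 for Postn against -3.27 with 2 UMIs. Cilp, a cartilage and connective tissue matrix protein, stood at 250.3 and 60.4 CPM, a ratio of 0.241 (0.185 to 0.311) against 0.488. Sparc, a collagen-binding protein, stood at 4209 and 1727 CPM, a ratio of 0.410 against 0.495. Among the small leucine-rich proteoglycans 8 of 9 were lower, 4 past 2-fold (median -0.99 against -0.48). Lum had a ratio of 0.502 (0.473 to 0.533) against 0.717, and Bgn, biglycan, 0.460 against 0.455.

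Signalling genes moved in both directions. Of the BMP and TGF-beta genes, 19 of 25 were lower in knockout Bmp5 fibroblasts, 8 past 2-fold, with a median of -0.52 against -0.58 in the others. Fstl1, a secreted BMP-binding protein, stood at 1090.5 and 369 CPM, a ratio of 0.338 (0.304 to 0.376) against 0.524, and Ltbp4, which anchors latent TGF-beta, had 0.412 against 0.583. The BMP target genes Id1 and Id3 stood higher. Id1 went from 67.9 to 175 CPM, a ratio of 2.57 (2.0 to 3.34) against 1.76 in the others, and Id3 from 838 to 1723 CPM, a ratio of 2.06 (1.91 to 2.22) against 1.51. Bmp5 itself had 269 and 215 CPM, levels that the rule chose.

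Of the Wnt genes, 8 of 10 were lower, 2 past 2-fold, with a median of -0.63 against -0.71. Sfrp4, a secreted Wnt antagonist, stood at 313 CPM in control and 6.35 in knockout, a ratio of 0.0203 (0.00869 to 0.0403), and was also lower in the other fibroblasts, at 0.122 (0.109 to 0.137). The counting intervals of the Sfrp4 ratios do not overlap. Contractile genes were lower for 8 of 12, 3 past 2-fold. Acta2, smooth muscle actin, stood at 72.6 and 11.1 CPM, a ratio of 0.153 against 0.216.

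Glucocorticoid-responsive genes stood higher. Of 13 measured, 11 were higher in the knockout and 4 past 2-fold, with a median of 0.74 against 0.43 in the others. Tsc22d3, a leucine zipper protein induced by glucocorticoids, stood at 236 and 714 CPM, a ratio of 3.02 (2.65 to 3.46) against 1.98. Fkbp5, a co-chaperone of the glucocorticoid receptor, had 2.22 against 1.95. Ddit4, an inhibitor of mTOR signalling, stood at 55.3 and 154 CPM, a ratio of 2.79 against 2.25. The metallothionein Mt2 stood at 896 and 1870.4 CPM, a ratio of 2.09 against 2.20.

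Clock genes were lower for 10 of 12, with 5 past 2-fold lower and 1 past 2-fold higher, and a median of -0.64 against -0.77. Nr1d1, a repressor of the circadian clock, stood at 103 and 16.7 CPM, a ratio of 0.161 (0.0966 to 0.257) against 0.162 in the others. Dbp, an output factor of the clock, stood at 52.1 and 4.77 CPM, a ratio of 0.0914 against 0.132. The genotypes cannot be told apart from the hour of collection, which is not given.

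The genes highest in the knockout by the near bound included Grik3, Heph and Inmt. Grik3, a glutamate receptor subunit, stood at 519 and 1887 CPM, a ratio of 3.64 (3.34 to 3.97) against 3.31. Heph, a ferroxidase of iron export, stood at 392 and 1366 CPM, a ratio of 3.49 (3.15 to 3.86) against 3.20. Inmt, a methyltransferase of tryptamine and related amines, stood at 518 and 1665 CPM, a ratio of 3.21 (2.94 to 3.51) against 2.15. Dpep1, a membrane dipeptidase, stood at 92.4 and 338 CPM, a ratio of 3.66 against 4.5.

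**Figure D5:**
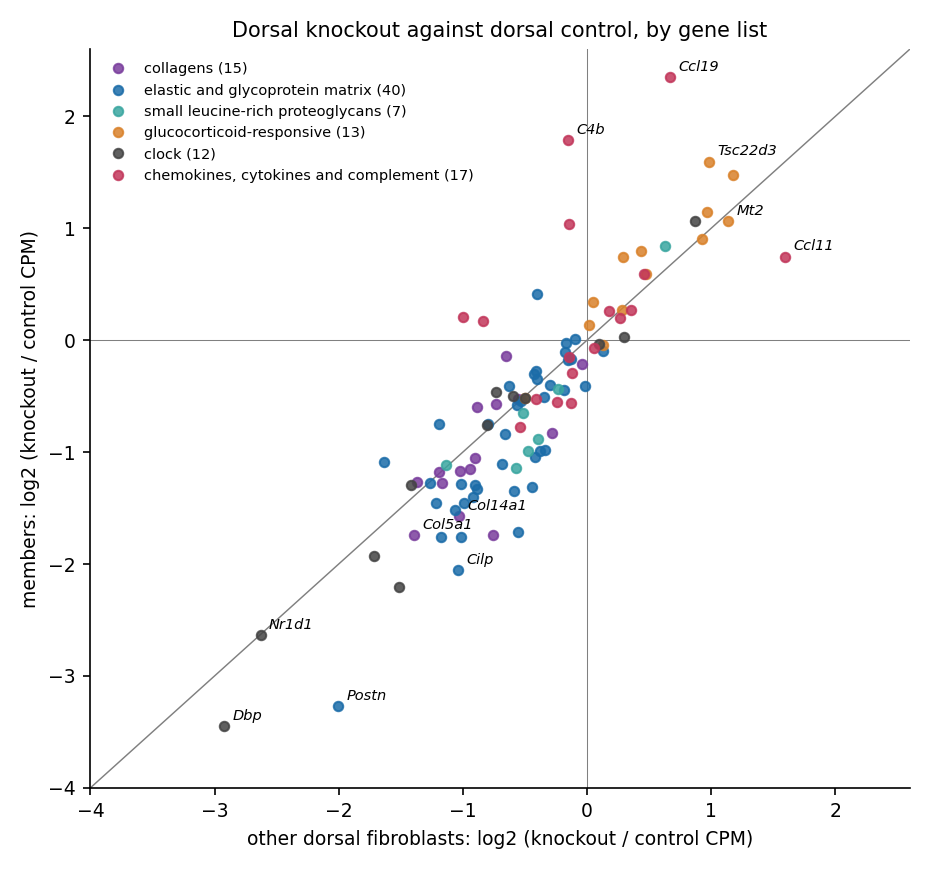
Log2 ratio of knockout to control dorsal level for the genes of 6 lists, in the other fibroblasts (horizontal axis) and in the Bmp5 fibroblasts (vertical axis), with 1 point per gene and the diagonal of equal ratios. Collagens lie below 0 on both axes and most glucocorticoid-responsive genes lie above 0 on both.

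Chemokine, cytokine and complement genes, and interferon response genes, had medians on opposite sides of 0 in Bmp5 and other fibroblasts. Of the chemokine group, 20 were measured in Bmp5 fibroblasts and 13 were higher in the knockout, 5 of them past 2-fold, and none was past 2-fold lower (median 0.23), against 10 of 21 higher in the others, with 1 past 2-fold higher and 2 lower (median -0.12). Of 8 measured interferon response genes 5 were higher and 1 was past 2-fold lower (median 0.06), against 3 of 21 higher and 6 past 2-fold lower in the others (median -0.64). The chemokine and interferon groups hold different numbers of measured genes in the compared cells, and the differences between medians were not tested. C4b, a complement component, stood at 29.2 and 101 CPM in Bmp5 fibroblasts, a ratio of 3.45 (2.38 to 5.12), and at 169 and 152 CPM in the others, 0.901 (0.854 to 0.950). The C4b difference rested on the threshold, since the log2 ratio of 1.79 was 0.64 with 1 UMI of Lrat and Bmp5 required and 0.60 with 3 UMIs. Ccl11 moved the other way, with a ratio of 1.68 (1.53 to 1.84) in Bmp5 fibroblasts against 3.03 (2.88 to 3.18). The Ccl11 level of Bmp5 fibroblasts over that of the others was accordingly smaller in knockout than in control dorsal.

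Further genes had ratios that lay apart in the selected and other cells. Tmem176b, a membrane protein of antigen-presenting and stromal cells, stood at 92.4 and 306 CPM, a ratio of 3.31 (2.68 to 4.11) against 1.35. Igfbp3, which binds insulin-like growth factors, stood at 131 and 234 CPM, a ratio of 1.79 (1.47 to 2.18) against 0.627. Ly6c1, a surface antigen of endothelial and stromal cells, stood at 888 and 444 CPM, a ratio of 0.50 against 0.993. Tmem100, a target of BMP signalling in endothelium, stood at 114 and 49.2 CPM, a ratio of 0.433 (0.316 to 0.587) against 1.14. These genes were chosen for that distance, and the distance was not tested.

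In the ventral libraries, with 7 and 12 Bmp5 fibroblasts, 37 of 384 measured genes were higher in the knockout (9.64%) and 21 lower (5.47%), against 0.377% and 0.421% in the other fibroblasts. Genes past 0 in the same direction on both sides included the metallothioneins Mt1 and Mt2, which were higher. Among the lower ones were Sparc and Dpt, which encodes the matrix protein dermatopontin. Mt1 stood at 2817, 5062, 5273 and 8494 CPM in the order used above. Sparc stood at 4209, 5227, 1727 and 1794 CPM, and Dpt at 1234, 1342, 863 and 622. For Sparc both control libraries were above both knockout libraries. A single cell held 46.8% of the Mt1 and 35.1% of the Sparc UMIs of control ventral. The control ventral level of Chad and Ecrg4, which also stood lower in the knockout, came mainly from the 3 cells with Col2a1 UMIs. Without those cells the ventral log2 ratios of Chad and Ecrg4 were 0.47 and 1.21, above 0.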

How the data were processed

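Dissociated tracheal cells of 4 libraries were profiled with the 10x GEM-X 5′ v3 kit, per the labels' protocols. The authors deposited raw UMI counts per gene and barcode from Cell Ranger 10.0.0 on GRCm39, per the submitters' processing notes. Sums of UMIs over cells of 1 set and library were divided by the total and given as UMIs per 1000000 (CPM). Ratios of CPM had conditional exact binomial intervals, levels exact Poisson intervals and shares exact Clopper-Pearson intervals, all at 95%. No test was made, since each group has 1 library. A gene was measured with at least 50 UMIs and 20 CPM in 1 sum and counted past a ratio of 2 or 0.5. Log2 ratios of lists had 1 UMI added, divided between the 2 sums by depth. Shares were repeated after thinning each cell to 5000 UMIs. The ratios and their intervals were tested on simulated sums of UMIs without variation between cells, and the other steps were not. Analyses used Python 3.11.15 with numpy 2.4.6, scipy 1.17.1, pandas 2.3.3, scanpy 1.11.5 and matplotlib 3.10.9.

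Fibroblasts held a median of 8366 to 11007 UMIs per cell, and the Bmp5 fibroblasts summed to 79013 to 1266445 UMIs per library. Doublets were called with Scrublet, which marked 2.08%, 0.523%, 1.05% and 2.69% of kept cells in the control dorsal and ventral and the knockout dorsal and ventral libraries. In knockout ventral the automatic threshold marked 0.0743% and a fixed rate was used in its place. Called doublets were kept and left out only as an alternative.

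The members and gene lists were chosen with earlier results of these data known. Named genes were the 15 highest and 10 lowest against other fibroblasts, and the 10 highest and 10 lowest for region and genotype, by the interval bound nearest 1 over the compared libraries. The rule's own genes were left out, with mitochondrial, ribosomal, globin, antibody, sex-linked and dissociation genes. So were genes under 10% of the highest level in another cell class. List members, markers, Ctnnb1 and eGFP were added. The regional sets, the ranking on dorsal libraries alone, which left out genes with over 33% of UMIs in 1 cell, the comparison of genotype ratios between member and other cells, and 5 alternatives (Bmp5 alone, Lrat alone, cells with Col2a1 UMIs left out, gland genes left out of the ventral set, fibroblasts fixed before thinning) were chosen after seeing the data.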

Additional observations from a re-analysis of the deposited data

Results flagged for a closer look

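For 11 genes the Bmp5 fibroblasts stood past 2-fold in opposite directions in comparisons that share no library, and these differences were not tested. All rest on 7 control and 12 knockout ventral cells. The dorsal to ventral ratio was 7.89 in control and 0.176 in knockout for Adgrd1, an adhesion receptor. It was 3.96 and 0.426 for Cd248, the stromal antigen endosialin, and 0.378 and 3.61 for Eln, which encodes elastin. For the hyaluronan synthases it was 15.5 and 0.0931 for Has1 and 4.21 and 0.408 for Has2. For Heph the ratios were 0.340 and 2.01, and for Id1 0.192 and 3.09. The guidance genes Sema3c and Slit3 had 5.83 and 0.461, and 6.10 and 0.495. Spon1, a secreted matrix protein, had 0.401 and 2.92. The knockout to control ratio of Has1 was 0.295 in dorsal and 49.0 in ventral cells, and that of Ly6c1 0.50 and 4.15. Has1 had 4 UMIs in 1 of the control ventral cells and 307 UMIs in 9 of the knockout ventral cells, 95 of them in 1 cell.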

How the results depend on the processing

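No paired analysis was possible because each group has 1 library. Shares in the control dorsal and ventral and the knockout dorsal and ventral libraries were 14.1%, 1.67%, 12.4% and 1.84% with 1 UMI of Lrat and Bmp5 required, and 2.68%, 0.0574%, 2.76% and 0.380% with 3. With Lrat alone they were 0.191%, 0%, 0.324% and 0.0633%. After thinning, with the rule applied anew, they were 4.02%, 2.76% and 0.354% in control dorsal, knockout dorsal and knockout ventral. In each of these settings both dorsal shares were above both ventral ones.

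Genes past 2-fold numbered 142 and 76 against other fibroblasts in control and knockout dorsal, 1026 and 659 for region in control and knockout, and 512 and 58 for genotype in dorsal and ventral trachea. With no CPM minimum and 10 UMIs they numbered 2632, 2484, 3773, 2897, 1601 and 684. With 1 UMI required the region count in control was 614 and the ventral genotype count 88. With 3 UMIs required the counts against other fibroblasts were 257 and 159 and the dorsal genotype count 287.

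Of the log2 ratios of named genes, 1236 values under an alternative stayed on the same side with a small shift, 164 moved and 6 reversed. The region ratio in control reversed for Tppp3 (-0.0033 with 1 UMI required), Sik3 (1.46 with 3) and Sertad2 (0.75 with 3). The genotype ratio of Omd was 0.11 in dorsal cells with 3 UMIs required, and without the cells that held Col2a1 those of Chad and Ecrg4 were 0.47 and 1.21 in ventral cells. The control ventral group then held 1 cell with 3 UMIs required, and 4 cells without those that held Col2a1. Of the list medians 771 stayed and 67 moved. Size factors were set by a median log2 ratio, which was -0.22 for both region comparisons and -0.11 for both genotype comparisons. Dividing by them raised all region and genotype ratios by the same amounts on the log2 scale. The cause of these changes was not tested.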
